A study of Mus musculus with 8 samples.

Results

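The genes described here are the transcription factors that commit a lymphoid progenitor to the T cell lineage, measured in CD4-negative CD8-negative cells of the mouse thymus and of the spleen. They were taken as every probe set whose gene symbol is Gata3, Tcf7, Lef1, Bcl11b, Runx1, Runx3, Tox, Myb, Gfi1 or Ikzf1. Of these 10 genes, 9 were found, with 16 of the 22690 probe sets on the array, among 12393 genes with a probe set of their own. No probe set used here carries the symbol Tcf7, and that gene was not analysed here. The main pattern was a low level on 1 array: Myb stood at 5.31 on the log2 scale in the array emigrants TCDD 2, against 9.96 to 10.6 on the 3 other emigrant arrays and 10.7 to 11.6 on the 4 thymocyte arrays.

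Female C57BL/6 mice aged 6 to 8 weeks, with no engineered allele named in the labels, were injected intraperitoneally with corn oil or with TCDD at 10 µg/kg in corn oil. TCDD (2,3,7,8-tetrachlorodibenzo-p-dioxin) is a dioxin that activates AhR, the aryl hydrocarbon receptor. The thymus was marked with the dye FITC 5 days later. After another 24 h, CD4-negative CD8-negative cells were sorted from the thymus (thymocytes) and from the spleen (emigrants), which the series' design text further describes as FITC-positive. The 4 groups are thymocytes oil, thymocytes TCDD, emigrants oil and emigrants TCDD, with 2 arrays each, numbered 1 and 2. Whether partner arrays hold RNA of different animals, of pooled animals or of a single preparation is not stated, and the spread behind each p-value can therefore be technical.

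The labels disagree with each other in several places, and groups follow the sample titles. Emigrants oil 1 carries TCDD in its Treatment field and emigrants oil 2 the entry "Dioxane 2", and thymus is entered as the Tissue of several emigrant samples. The text attached to the thymocyte TCDD arrays mentions corn oil only, and the Treatment field gives 10 nM where the protocol gives the injected dose. Of 6 genes listed as a check of exposure (Cyp1a1, Cyp1b1, Scin, Tiparp, Ahrr and Nqo1), 6 were higher on both TCDD emigrant arrays than on either oil emigrant array, and 5 in the same comparison of thymocytes. Their levels, summed on the linear scale, came to 213 in emigrants oil 1 and 218 in emigrants oil 2, against 1238 to 1429 in the TCDD emigrants. Single genes were less even: Cyp1b1 read 4.69 in emigrants oil 1 and 6.25 in emigrants oil 2, against 6.87 and 8.36 in the TCDD emigrants. T lineage markers were above the array median on all 8 arrays for each of the 6 measured, which include Cd3e and Thy1. Cd4 lay between 4.53 and 5.31 and Cd8a between 4.57 and 7.14, where the array medians were 4.81 to 4.91. The number of arrays limits the precision of every value here.

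In the thymus, Notch signalling in incoming progenitors switches on the factors encoded by Tcf7 and Gata3, which open and activate T lineage genes. Bcl11b then closes the alternative fates, working with RUNX proteins, while factors such as Myb, Gfi1 and Ikaros take part from the progenitor stage onwards and Tox, Lef1 and Runx3 act mainly in later steps. TCDD acts through AhR, a ligand-activated factor that pairs with ARNT and binds DNA at a short core motif.

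Promoter sequence is shown for Myb and Gfi1, the genes with the widest ranges here, and for Runx1. Among the factors with a window, only Myb and Runx1 have an AhR core motif in one. Each line gives the 250 bases before a RefSeq gene start in the mouse assembly GRCm38.p6, 5′ to 3′ on the strand of the gene, and capitals mark the AhR core GCGTG. All 3 genes lie on the minus strand, and the windows are chr10:21160985-21161234 for Myb, chr5:107725806-107726055 for Gfi1 and chr16:92697330-92697579 for Runx1. GCGTG is absent from the Gfi1 window shown and from the windows of a second Gfi1 start and a second Runx1 start.
Myb: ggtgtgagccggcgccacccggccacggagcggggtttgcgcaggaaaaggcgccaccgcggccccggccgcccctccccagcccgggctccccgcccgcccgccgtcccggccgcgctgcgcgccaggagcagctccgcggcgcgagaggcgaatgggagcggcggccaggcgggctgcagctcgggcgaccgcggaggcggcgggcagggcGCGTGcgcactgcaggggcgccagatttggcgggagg
Gfi1: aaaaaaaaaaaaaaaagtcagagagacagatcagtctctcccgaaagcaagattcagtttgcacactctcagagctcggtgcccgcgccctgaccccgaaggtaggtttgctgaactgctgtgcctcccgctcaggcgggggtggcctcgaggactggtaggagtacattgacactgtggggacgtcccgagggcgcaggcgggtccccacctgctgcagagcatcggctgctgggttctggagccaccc
Runx1: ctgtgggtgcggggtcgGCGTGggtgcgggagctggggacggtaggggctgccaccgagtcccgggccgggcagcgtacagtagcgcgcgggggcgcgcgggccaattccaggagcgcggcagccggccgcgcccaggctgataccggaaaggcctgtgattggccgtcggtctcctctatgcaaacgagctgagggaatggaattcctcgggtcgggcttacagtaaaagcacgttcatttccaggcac

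The motif GCGTG, read on both strands, begins 37 bases before the Myb start and 233 bases before the Runx1 start. It was present in 2 of the 17 windows of the factors, which cover 9 of the 10 genes, Tcf7 included and Tox without a window. Of all 32851 windows of this length, 28.2% hold it. The other letters searched on both strands were TGTGGT for RUNX (1 of 17 windows, against 14.0% of all), AGATAA for GATA factors (0 of 17, against 9.99%), TCAAAG for TCF and LEF (2 of 17, against 13.8%) and TGGGAA for Ikaros (1 of 17, against 21.6%). None of these 4 occurs in the windows printed above, so the GCGTG matches there overlap no other motif searched. A match describes letters in a window and is not evidence of binding.

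Myb encodes a DNA-binding factor that thymocyte precursors need to develop, and it had the widest range of the 9 genes, 6.30 log2 units over the 8 arrays. Its brightest probe set, 1421317_x_at, read 11.44 and 10.69 in oil thymocytes and 11.61 and 10.85 in TCDD thymocytes. In emigrants it read 10.00 and 9.96 under oil, then 10.59 and 5.31 under TCDD. All 4 emigrant arrays were below all 4 thymocyte arrays, and the TCDD emigrants fell on both sides of the oil emigrants. The letter x in this identifier marks a probe set in which some probes may also match other transcripts.

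A second Myb probe set, 1450194_a_at, gave a like pattern at other levels. It read 7.55 and 7.73 in oil emigrants, 8.18 and 3.43 in TCDD emigrants, 9.02 and 8.58 in oil thymocytes, and 9.18 and 8.52 in TCDD thymocytes. Emigrants TCDD 2 was again the lowest of the 8 arrays, here below the array median. The remaining Myb probe set, 1422734_a_at, lay below the array median on all 8 arrays and is given no difference.

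Between the 2 arrays of the TCDD emigrants, Myb therefore differed by -5.28 (array 2 minus array 1), while the arrays of the 3 other groups differed by -0.05 to -0.76. Emigrants TCDD 2 lay 4.65 log2 units below the lowest of the 3 other emigrant arrays for the first probe set and 4.12 below for the second. Those were the lowest 2 of all 22626 probe sets tested by this measure, and no other probe set was over 4 units below (0.00884% of all for the pair, with a limit chosen after the values were seen). The next probe sets in that order belonged to Dntt (3.73 below), Cd24a (3.55 below) and Sox4 (3.54 below).

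The group comparisons of Myb were fitted with limma across all 22626 probe sets, with Benjamini-Hochberg adjustment. In thymocytes TCDD minus oil was 0.17 (SE 1.53, n = 2 and 2, limma adjusted p = 1.00) and in emigrants -2.03 (SE 1.53, limma adjusted p = 1.00). Emigrants minus thymocytes was -1.09 under oil (limma adjusted p = 0.882) and -3.28 under TCDD (limma adjusted p = 0.703). Over both treatments the difference was -2.19 (SE 1.08, n = 4 and 4, limma adjusted p = 0.431). None of these passed the threshold of 0.05. The SE pools the spread of all 4 groups, and the SD of the 2 arrays was 3.73 in TCDD emigrants. It was 0.54 in each thymocyte group and 0.034 in oil emigrants. Comparisons without the TCDD emigrants therefore carry an SE and a p that rest largely on arrays outside them. Each large value rests on emigrants TCDD 2: without that array the TCDD difference in emigrants was 0.61, emigrants minus thymocytes under TCDD -0.64, and the difference over both treatments -0.87. With emigrants TCDD 2 as the sole TCDD emigrant, emigrants minus thymocytes under TCDD was -5.92, and the difference over both treatments was -3.50. That fit assumes that the lone array varies like those of the other groups, so no p is given for it. The TCDD effect in emigrants minus that in thymocytes was -2.20 (SE 2.16, limma adjusted p = 1.00), and 0.44 without emigrants TCDD 2.

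Gfi1 encodes a zinc finger repressor that limits cytokine receptor and alternative-lineage genes in early thymocytes. Its single probe set, 1417679_at, read 7.88 and 7.89 in oil thymocytes and 7.57 and 7.50 in TCDD thymocytes. In emigrants it read 7.04 and 6.72 under oil, then 7.09 and 5.34 under TCDD. Emigrants were again below thymocytes on 4 arrays against 4, emigrants TCDD 2 was the lowest, and within the thymus both TCDD arrays lay below both oil arrays.

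The Gfi1 difference between emigrants and thymocytes was -1.005 under oil, -1.32 under TCDD and -1.16 over both treatments (SE 0.365, limma adjusted p = 0.234). TCDD minus oil was -0.35 in thymocytes and -0.67 in emigrants (limma adjusted p = 1.00 for each). As for Myb, the pooled spread rests largely on the TCDD emigrants, with an SD of 1.24 against 0.0092 to 0.227 in the other groups. Without emigrants TCDD 2 the emigrant TCDD difference turned to 0.21, and emigrants minus thymocytes became -0.44 under TCDD and -0.72 over both treatments. Without emigrants TCDD 1, which leaves 1 array in its group, the last was -1.60. Emigrants TCDD 2 lay 1.38 log2 units below the other emigrant arrays for Gfi1, rank 47 from the lowest of all probe sets.

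**Figure D1:**
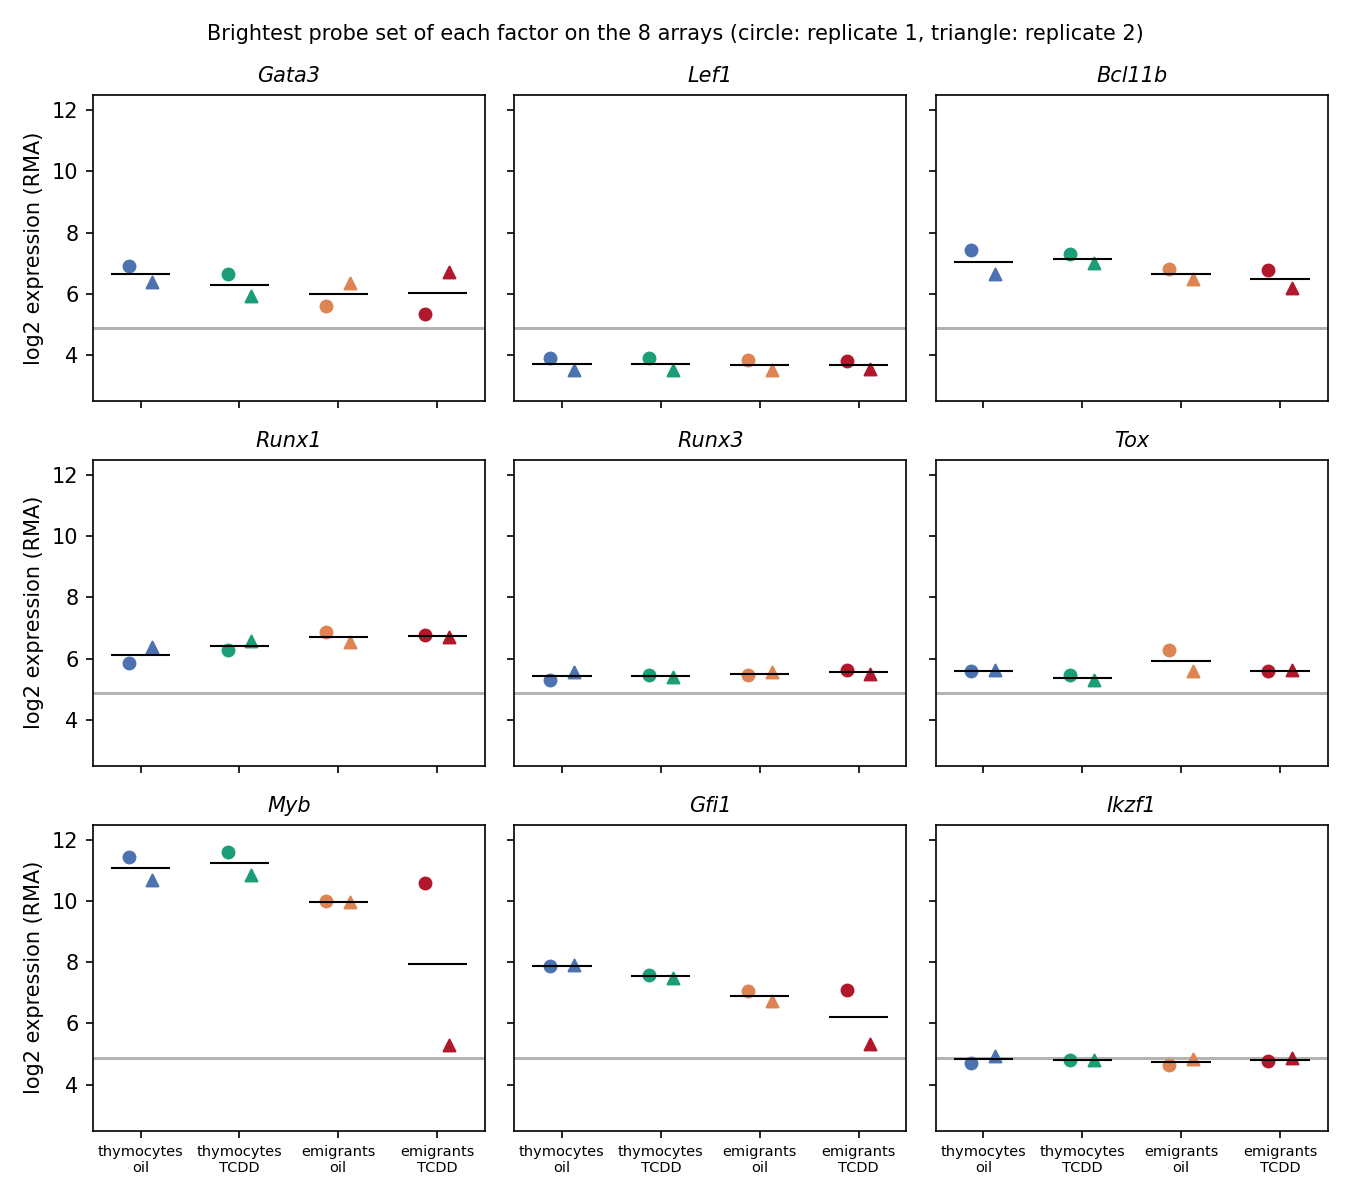
Log2 expression of the brightest probe set of each of the 9 factors by group, with circles for replicate 1, triangles for replicate 2, a black bar for the mean of 2 arrays and a grey line near the array medians. Myb and Gfi1 are low in emigrants TCDD 2 (5.31 and 5.34), Gata3 differs in the opposite direction between the same arrays (5.33 and 6.71), and Lef1 and Ikzf1 stay near or below the grey line.

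Gata3, a zinc finger factor needed from the first steps of T lineage specification, did not follow Myb. Its probe set 1448886_at read 6.91 and 6.40 in oil thymocytes, 6.65 and 5.92 in TCDD thymocytes, 5.61 and 6.36 in oil emigrants and 5.33 and 6.71 in TCDD emigrants. Emigrants TCDD 2 was the highest emigrant array and lay within the range of the thymocyte arrays, 1.38 above its partner. Both oil emigrants were below both oil thymocytes, a difference of -0.67 (SE 0.525, limma adjusted p = 0.800), and the TCDD groups overlapped (-0.27). Leaving out emigrants oil 1 changed the difference under oil to -0.29, and leaving out emigrants oil 2 changed it to -1.04. TCDD minus oil was -0.37 in thymocytes and 0.03 in emigrants, where leaving out emigrants TCDD 2 gave -0.66.

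Lef1, a relative of Tcf7 that acts mainly in later thymocytes, was measured by 1421299_a_at. It lay between 3.51 and 3.91, below the array median on all 8 arrays, so no difference is given for it. Ikzf1, which encodes Ikaros and restrains Notch target genes, read 4.64 to 4.95 and was below the array median on 7 of 8 arrays. Both genes enter the counts over 16 probe sets below but no median.

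Bcl11b encodes the zinc finger repressor that completes T lineage commitment. Its probe set 1450339_a_at read 7.42 and 6.63 in oil thymocytes, 7.29 and 7.00 in TCDD thymocytes, 6.83 and 6.50 in oil emigrants and 6.80 and 6.19 in TCDD emigrants. The TCDD emigrants were both below the TCDD thymocytes, the oil groups overlapped, and emigrants TCDD 2 was the lowest array by 0.31. Emigrants minus thymocytes was -0.65 under TCDD (SE 0.328, limma adjusted p = 0.733) and -0.36 under oil, and TCDD minus oil was 0.12 in thymocytes and -0.17 in emigrants. Without emigrants TCDD 2 the difference under TCDD was -0.35, and without emigrants TCDD 1 it was -0.95.

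Runx1 encodes a RUNX factor that pairs with CBF-beta and works beside Bcl11b in T precursors. Its brightest probe set, 1452531_at, read 5.85 and 6.37 in oil thymocytes, 6.29 and 6.57 in TCDD thymocytes, 6.88 and 6.53 in oil emigrants and 6.79 and 6.72 in TCDD emigrants. Within each treatment both emigrant arrays were above both thymocyte arrays, by 0.59 under oil (SE 0.226, limma adjusted p = 0.512) and 0.32 under TCDD (limma adjusted p = 0.820). Over both treatments the difference was 0.46 (SE 0.160, limma adjusted p = 0.274), and the 4 emigrant arrays overlapped the 4 thymocyte arrays. TCDD minus oil was 0.32 in thymocytes and 0.05 in emigrants, and leaving out thymocytes oil 1 gave 0.058 for the thymocyte value, where leaving out its partner gave 0.58. The same arrays moved the source difference under oil, to 0.33 and 0.85.

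The other Runx1 probe sets did not give that pattern. Probe set 1422864_at read 4.97 and 5.82 in oil thymocytes, 5.18 and 6.71 in TCDD thymocytes, 6.52 and 5.46 in oil emigrants and 6.20 and 4.71 in TCDD emigrants. Its groups overlapped between the sources, and replicate 2 was above replicate 1 in both thymocyte groups and below it in both emigrant groups. The remaining Runx1 probe sets, 1427650_a_at, 1452530_a_at and 1422865_at, lay below the array median on all 8 arrays. Which Runx1 transcripts each probe set reads was not analysed here.

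Runx3, the RUNX factor of the CD8 and cytotoxic branches, was nearly level. Probe set 1421467_at read 5.29 and 5.57 in oil thymocytes, 5.45 and 5.39 in TCDD thymocytes, 5.45 and 5.55 in oil emigrants and 5.63 and 5.50 in TCDD emigrants. Its group differences ran from -0.00 (TCDD minus oil in thymocytes) to 0.14 (emigrants minus thymocytes under TCDD, SE 0.149, limma adjusted p = 0.905).

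Tox encodes an HMG-box factor required for development of CD4 T cells. Probe set 1425484_at read 5.59 and 5.62 in oil thymocytes, 5.46 and 5.30 in TCDD thymocytes, 6.28 and 5.60 in oil emigrants and 5.59 and 5.61 in TCDD emigrants. Emigrants oil 1 stood 0.66 above the other emigrant arrays, which read 5.59 to 5.61. Emigrants minus thymocytes was 0.33 under oil (SE 0.230, limma adjusted p = 0.769) and 0.22 under TCDD, and TCDD minus oil was -0.22 in thymocytes and -0.33 in emigrants. Without emigrants oil 1 the difference under oil was -0.0079 and TCDD minus oil in emigrants 0.0053. Its second probe set, 1425483_at, was below the array median on all 8 arrays.

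**Figure D2:**
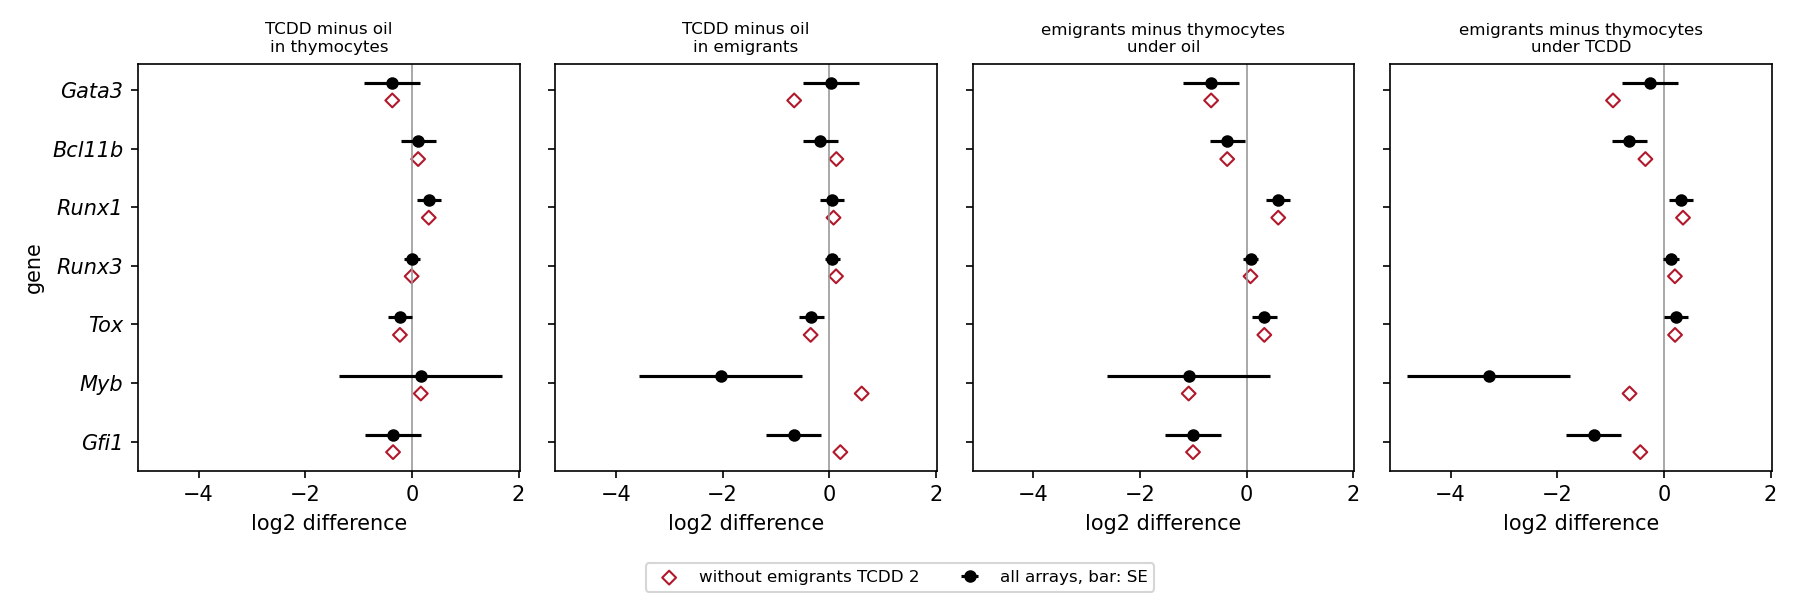
Log2 differences between group means for the 7 factors whose brightest probe set was above the array median on all 8 arrays, in 4 comparisons. Black points show all arrays with bars of 1 SE from limma, and red diamonds show the same difference without emigrants TCDD 2; Myb moves from -2.03 to 0.61 for TCDD in emigrants and from -3.28 to -0.64 between the sources under TCDD.

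Across the 16 probe sets, limma called 0 in each of the 6 comparisons at an adjusted p of 0.05. Of all 22626 probe sets it called 0% for TCDD in thymocytes, 0% for TCDD in emigrants, 0% for emigrants against thymocytes under oil, 0% for the same under TCDD and 0% for the difference between the TCDD effects of the 2 sources. Emigrants against thymocytes over both treatments gave 14 calls, 0.0619% of all, with no factor among them. At an unadjusted p of 0.05, the TCDD comparisons gave 0 of 16 in thymocytes (1.38% of all) and 0 of 16 in emigrants (1.21%). Between the sources 1 of 16 passed under oil (Runx1, higher in emigrants, against 8.95%), 1 under TCDD (Gfi1, lower, against 7.44%) and 2 over both treatments (Gfi1 lower and Runx1 higher, against 14.1%). The test of whether the TCDD effect differed between the sources gave 0 of 16, against 1.28% of all.

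Without a test, the arrays of the compared groups can be set side by side. Under oil, emigrants lay wholly below thymocytes for 6 of 16 probe sets (37.5%), where 18.8% of all probe sets did, and wholly above for 1, where 19.9% of all did. Under TCDD the counts were 4 below (against 15.1%) and 3 above (against 20.6%). Over both treatments, 4 arrays against 4, they were 3 below (both bright Myb probe sets and Gfi1, against 5.64%) and 0 above (against 6.12%). TCDD against oil separated 2 of 16 in thymocytes, both lower (Gfi1 and Tox, against 11.0%) with 0 higher (against 9.70%), and 1 in emigrants, higher (against 13.7%) with 0 lower (against 10.9%). Of the 16 probe sets, 7 are dim by the rule used here (both arrays of some group below their array medians). They carry 2 of the 6 below under oil (Myb 1422734_a_at and Runx1 1422865_at) and the only one separated by TCDD in emigrants (Runx1 1422865_at), so that of the 9 others 4 were below under oil and 0 were separated by TCDD in emigrants. With several probe sets sharing a gene, these shares move by a large step with each probe set.

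Lef1 and Ikzf1 were left out of the median difference, which covers the 7 other genes measured. It was -0.0043 for TCDD in thymocytes (all probe sets -0.0043) and -0.17 for TCDD in emigrants (all 0.02). Between the sources it was -0.36 under oil (all 0.01), -0.27 under TCDD (all 0.04) and -0.47 over both (all 0.03). For the difference between the TCDD effects of the 2 sources the median was -0.27, and 0.03 over all. Within these medians the genes differed in direction: over both treatments they ran from -2.19 for Myb to 0.46 for Runx1.

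Gaps of over 1 log2 unit between the arrays of a group were found for 5 of 16 probe sets in the TCDD emigrants, where 5.74% of all probe sets had one. They belonged to Myb (both bright probe sets, array 2 lower), Gfi1 (array 2 lower by 1.75), Gata3 (array 2 higher) and Runx1 (1422864_at, array 2 lower). The counts were 0 in oil thymocytes (6.97% of all), 1 in TCDD thymocytes (4.86%) and 1 in oil emigrants (5.71%), both for the Runx1 probe set 1422864_at. Emigrants TCDD 2 was over 1 unit below the 3 other emigrant arrays for 3 of 16 probe sets (2 of Myb and that of Gfi1, against 0.619% of all), and over 1 unit above them for 0 of 16 (0.420% of all). On the 7 other arrays no probe set of these factors was over 1 unit outside its source.

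**Figure D3:**
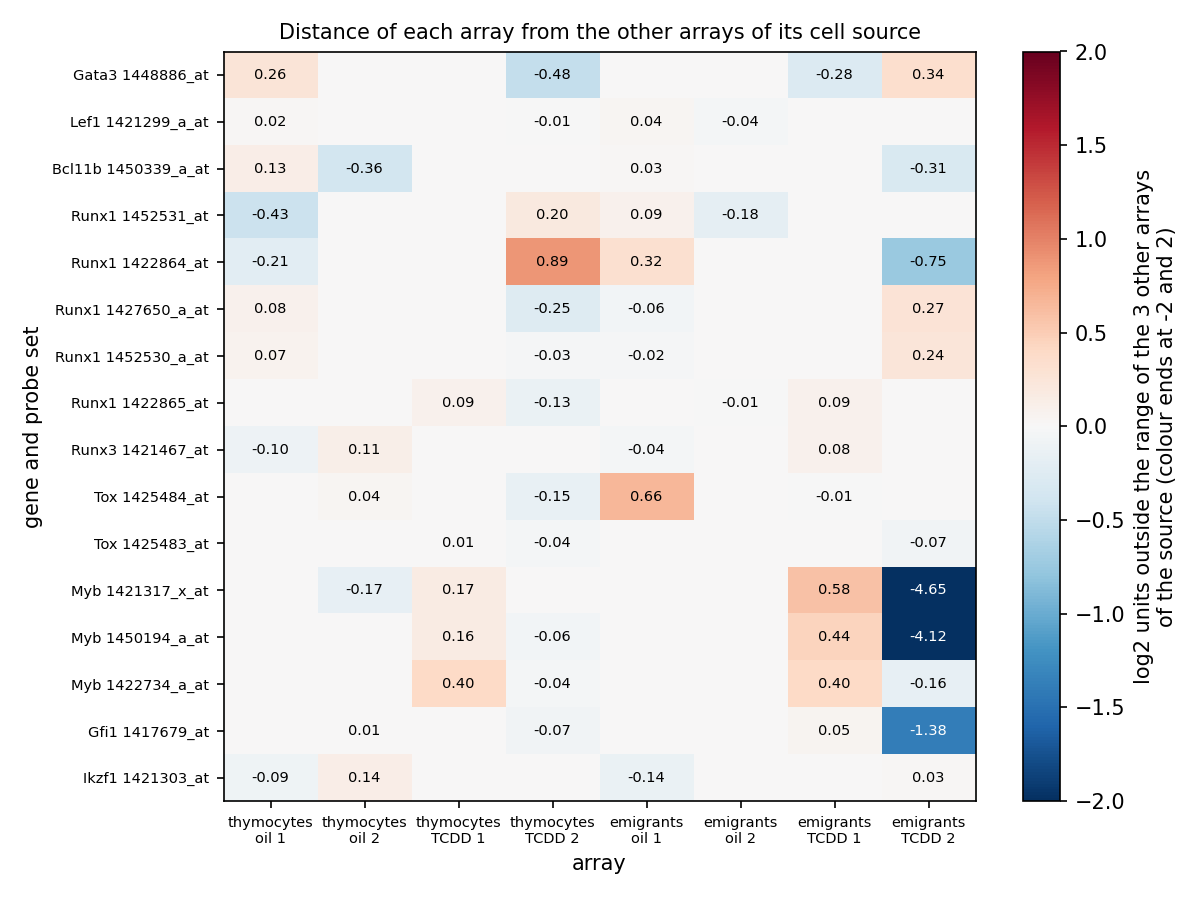
Log2 units by which each array lies outside the range of the 3 other arrays of its source, for each of the 16 probe sets; empty cells are inside that range, and the colour scale ends at -2 and 2. The 3 values past 1 unit, 2 of Myb and 1 of Gfi1, are in the column of emigrants TCDD 2.

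Other genes of the pathway were read from 3 lists: 15 measured of 19 partner factors, 15 of 15 progenitor factors that commitment switches off, and 18 of 20 T lineage target genes. Limma called 0 genes of each list in each of the 6 comparisons. For TCDD in emigrants the median difference, dim genes included, was -0.19 for partner factors, 0.12 for progenitor factors and -0.43 for target genes, where all probe sets had 0.02. In thymocytes the same medians were -0.03, 0.06 and 0.07, where all had -0.00. At an unadjusted p of 0.05, the TCDD comparison in emigrants gave 1 target gene lower, 1 progenitor gene higher and no partner factor, where 1.21% of all probe sets passed. Between the sources over both treatments the same limit gave 2 partner factors higher and 3 lower in emigrants, 2 progenitor factors higher and 0 lower, and 2 target genes higher and 8 lower, where 14.1% of all probe sets passed.

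Emigrants TCDD 2 was over 1 unit below the other emigrant arrays for 3 of 15 partner factors, where 0.619% of all probe sets were. Sox4, an HMG-box factor of lymphoid progenitors, read 8.58, 8.15 and 8.29 on the 3 other emigrant arrays, 4.60 in emigrants TCDD 2 and 8.75 to 9.47 in thymocytes. Tcf12, which encodes the E protein HEB, read 9.37, 8.34 and 8.87 on those 3 arrays and 6.52 in emigrants TCDD 2. The third was Satb1, a chromatin organiser, at 1.14 below, named after its value was seen. Notch1, the receptor that starts the program, was lower in all 4 emigrant arrays (6.85 to 7.98) than in all 4 thymocyte arrays (9.40 to 9.65), and emigrants TCDD 2 was only 0.40 below its partners. Id3, an inhibitor of E proteins, ranged from 4.45 in emigrants TCDD 2 to 7.05 in emigrants oil 1, and the sources overlapped.

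Among target genes, Dntt, the polymerase that adds bases to receptor joints, was low on the same array as Myb. It read 12.41 and 12.84 in oil thymocytes, 12.45 and 12.43 in TCDD thymocytes, 9.82 and 10.68 in oil emigrants and 11.62 and 6.09 in TCDD emigrants. Rag1, which cuts DNA for receptor rearrangement, split the emigrants differently: it read 9.81 in emigrants oil 2, within the thymocyte range of 9.33 to 10.21, and 3.75 to 5.10 on the 3 other emigrant arrays. Ptcra, the pre-T receptor chain, read 5.08 to 7.00 in emigrants and 8.83 to 9.45 in thymocytes. Il2ra, the interleukin-2 receptor alpha chain, read 4.77 to 6.12 in emigrants and 6.88 to 8.47 in thymocytes, and emigrants TCDD 2 was the highest emigrant array. Of the 18 target genes, only Dntt was over 1 unit below the 3 other emigrant arrays in emigrants TCDD 2, where 0.619% of all probe sets were. Chains of the T cell receptor complex, named after their values were seen, lay on both sides: on that array Cd3g (8.50) and Cd3d (8.50) were at the lowest and Cd3e (8.91) at the highest of their 8 values.

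None of the 15 progenitor factors was over 1 unit below the other emigrant arrays in emigrants TCDD 2, where 0.619% of all probe sets were. With so low a share, and with dim genes such as Meis1 and Erg in the list, 0 of 15 does not set these factors apart. Kit, the stem cell factor receptor, was 1.12 above the other emigrant arrays at 8.64, where 0.420% of all probe sets were over 1 unit above. It read 7.50, 6.72 and 7.51 on the other emigrant arrays and 5.89 to 6.83 in thymocytes. Hhex, a progenitor homeobox factor, read 7.75 to 8.70 in emigrants and 6.31 to 7.55 in thymocytes. Tal1 ranged from 4.36 to 6.50 and Mef2c from 4.95 to 6.92, and emigrants TCDD 2 was inside the range of the other emigrants for both.

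**Figure D4:**
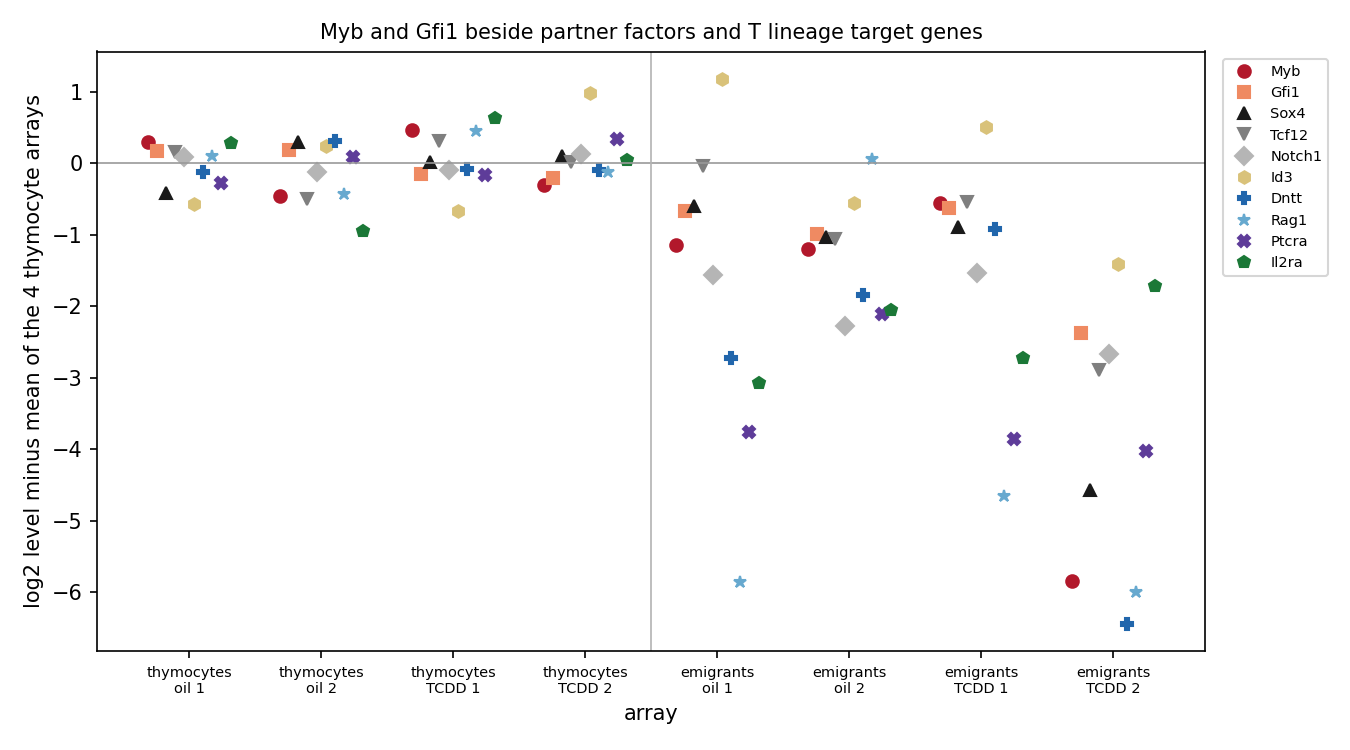
Log2 level minus the mean of the 4 thymocyte arrays of the same gene, on each of the 8 arrays, for Myb, Gfi1, the 4 partner factors and the 4 target genes with the widest ranges. Emigrants TCDD 2 shows Myb at -5.84, Dntt at -6.44 and Sox4 at -4.57, while Rag1 is low on 3 emigrant arrays and near 0 in emigrants oil 2.

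Markers of other cells differed between the emigrant arrays, and in sorted bulk samples fewer cells of a type and less RNA per cell cannot be told apart. The summed linear level of the 6 T lineage markers was 1702 on that array, 2304 in emigrants TCDD 1, 2081 to 2602 in oil emigrants and 2518 to 2626 in thymocytes. The 7 macrophage and dendritic markers summed to 2834 there, 2672 in emigrants TCDD 1, 1498 to 1925 in oil emigrants and 1120 to 1411 in thymocytes. The 9 NK cell markers summed to 1917 there, 5636 in its partner and 4533 to 4846 in oil emigrants. In thymocytes they summed to 2340 to 3996 under oil and 3509 to 6915 under TCDD. The list was not uniform on emigrants TCDD 2. Klrd1, Eomes and Gzma were over 1 unit below the other emigrants, while 3 markers (Ncr1, Klrk1 and Prf1) were above them, by 0.04 to 0.31. The 6 platelet markers summed to 1222 there, 488 in its partner and 286 to 389 in oil emigrants. Most of that sum was Pf4, at 10.0 there, 8.10 in its partner and 6.27 and 7.85 in oil emigrants. It was the only platelet marker over 1 unit above the other emigrants, and Ppbp lay inside their range. For granulocyte markers (10) emigrants TCDD 1 was the array that stood apart, at 6555, against 627 in emigrants TCDD 2 and 886 to 1107 in oil emigrants. Erythroid markers (7) were also highest in emigrants TCDD 1, at 1945, and the value of emigrants TCDD 2, 753, lay inside the oil emigrants' range of 371 to 1085. Proliferation markers (5) lay inside the range of the other emigrants, at 1782 against 1971 in its partner and 1411 to 2569 in oil emigrants. B cell markers (6) summed to 127 to 167 over the 4 emigrant arrays, with Cd79a, Pax5 and Ebf1 below the array median on all 8. In thymocytes, under oil and then TCDD, granulocyte markers summed to 2281 to 3569 and 1163 to 3834. Erythroid markers summed there to 274 to 314 and 259 to 324, and platelet markers to 271 to 281 and 262 to 689. Proliferation markers summed there to 2668 to 4983 and 2314 to 4226, and B cell markers to 316 to 457 and 311 to 786. The part of these cells in the Myb and Gfi1 values was not tested.

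RNA quality was read from the array's control probe sets, as the log2 level at the 3′ end minus that at the 5′ end. For emigrants TCDD 2 it was 3.79 for actin and 5.32 for Gapdh, and the 7 other arrays had 3.06 to 4.68 and 4.78 to 6.23. Among the emigrants this array lay inside the range of the 3 others for actin (3.34 to 4.68). For Gapdh it was above them (4.81, 4.91 and 4.97). The part of RNA quality in the Myb and Gfi1 values was not tested. For the 6 exposure genes emigrants TCDD 2 was over 1 unit above the other emigrants for 4, where 0.420% of all probe sets were. Among them were Ahrr, the AhR repressor, at 7.65 and Cyp1b1, a dioxin-induced monooxygenase, at 8.36. The list was not uniform: Scin read 6.30 there and 9.97 in emigrants TCDD 1, and Nqo1 read 5.22 and 5.23. The summed level of the list was 1238 there and 1429 in emigrants TCDD 1.

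Genes with the pattern most like Myb and Gfi1, the factors with a range above 2 log2 units in their brightest probe set, were found by Pearson r over the 8 arrays among 6195 genes. Those nearest to Myb were Ramp1 (r = 0.981, and 0.753 without emigrants TCDD 2), Mapkap1 (0.979, and 0.867) and Ybx3 (0.969, and 0.753). Those nearest to Gfi1 were Eef1b2 (r = 0.989, and 0.955 without that array), Cnot8 (0.988, and 0.956) and Frmd6 (0.980, and 0.976). Myb and Gfi1 themselves had r = 0.942 over the 8 arrays and 0.766 without emigrants TCDD 2. These values describe arrays that share a group structure and, for Myb, rest largely on 1 array.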

How the data were processed

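Per the labels' protocols, amplified RNA of the sorted cells was run on mouse Affymetrix arrays. The deposited table, made by the authors, holds log2 values of 22690 probe sets on 8 arrays, and the submitters' processing notes name RMA without a version. The values ran from 2.54 to 13.9. RMA gives the arrays a common distribution, which hides a shift shared by most genes and shrinks the differences of dim probe sets. No background signal of single probes was used.

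Gene symbols come from the platform's annotation and were brought up to date by gene identifier with a RefSeq table (GRCm38.p6, names only): 20380 had 1 symbol, 691 several and 1555 none, and 20351 were matched by identifier. The 64 control probe sets were left out, which leaves 22626. Each was fitted with limma 3.58.1 in R 4.3.3 (lmFit, eBayes, group means of all 8 arrays, 4 residual degrees of freedom, median residual SD 0.214, two-sided, Benjamini-Hochberg, threshold 0.05). The brightest probe set by mean stands for a gene, and its others are given beside it. No difference is given where both arrays of a group lay below their array medians. Of each pathway list up to 4 genes with the widest range were named, and 3 genes of most similar pattern for factors with a range above 2 log2 units. The members and lists were chosen with earlier results of these data known. The code was tested on simulated data. Promoter sequences are from RefSeq (GRCm38.p6), read with Python 3.11.15 and pandas 2.3.3, and figures were drawn with matplotlib 3.10.9.

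Alternatives were a repeated quantile normalization, centring on the array median, a filter on dim probe sets, 1 row per gene (brightest or mean), trend and robust eBayes settings, only the arrays compared, the replicate number as a block, the Treatment field of emigrants oil 1, and leaving out each array in turn.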

Additional observations from a re-analysis of the deposited data

How the results depend on the processing

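The count of called member probe sets stayed at 0 in all 6 comparisons under every alternative but 1, leaving out an array. Those fits gave 0 to 2 for emigrants minus thymocytes under TCDD and 0 to 3 over both treatments. The higher value in each came without emigrants TCDD 1, where Myb over both treatments was -3.50 and Gfi1 -1.60. That fit has emigrants TCDD 2 as the lone TCDD emigrant and assumes that this array varies like those of the other groups. No p is therefore given for it, and its counts are not taken as evidence of a source difference. Of 42 gene differences followed (7 genes, 6 comparisons), 22 kept their sign in every setting run and 20 did not, and many that kept it changed in size when 1 array was left out. Following the Treatment field for emigrants oil 1 turned TCDD minus oil in emigrants to -0.48 for Gata3, 0.11 for Bcl11b, -0.022 for Runx3 and 0.23 for Tox, Tox between the sources under oil to -0.0079, and the difference of the TCDD effects to -0.12 for Gata3, -0.018 for Runx3, 0.45 for Tox and 0.12 for Gfi1. The mean of the probe sets of a gene turned Runx1 for TCDD in emigrants to -0.026. The cause was not tested.

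Leaving out each array in turn changed the sign of these differences, given as lowest and highest. TCDD minus oil in thymocytes ran from -0.28 to 0.51 for Bcl11b, -0.14 to 0.13 for Runx3 and -0.21 to 0.55 for Myb. In emigrants it ran from -0.66 to 0.72 for Gata3, -0.47 to 0.13 for Bcl11b, -0.12 to 0.22 for Runx1, -0.0060 to 0.13 for Runx3, -0.68 to 0.0053 for Tox, -4.67 to 0.61 for Myb and -1.54 to 0.21 for Gfi1. Emigrants minus thymocytes under oil ran from -0.76 to 0.029 for Bcl11b, -0.064 to 0.21 for Runx3 and -0.0079 to 0.67 for Tox, and under TCDD from -0.96 to 0.42 for Gata3. The difference of the TCDD effects ran from -0.29 to 1.09 for Gata3, -0.68 to 0.10 for Bcl11b, -0.073 to 0.20 for Runx3, -0.45 to 0.23 for Tox, -4.84 to 0.44 for Myb and -1.19 to 0.56 for Gfi1.

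With the replicate number as a block 0 member probe sets were called in every comparison, and of all probe sets 226 were called between the sources over both treatments, where 14 were called without it. Same-numbered deviations correlated at 0.73 between the thymocyte groups, 0.52 between the emigrant groups, 0.12 between the oil groups and -0.15 between the TCDD groups, and nothing in the labels says that a number marks a shared mouse or day. A block within each source was not run for comparisons between the sources, in which it is nested, nor were fits of only the arrays compared for the 2 comparisons that use all 8. Over all settings the largest whole-array counts of calls were 1 in each TCDD comparison, 1 between the sources under oil, 16 under TCDD (Treatment field) and 1 for the difference of the TCDD effects. The number of arrays, 2 per group, limits every value, and signal over background was not examined.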
